A study of Mus musculus with 2 samples.

Results

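Chemokine receptors were examined in RNA-seq libraries of CD4- mature thymocytes from MHC-II0:CD8ab Tg mice. The 9 genes *Ccr7*, *Ccr9*, *Ccr4*, *Ccr8*, *Ccr2*, *Cxcr3*, *Cxcr4*, *Cxcr5*, and *Cxcr6* were taken by symbol from a list of receptors of cortex-to-medulla migration, egress, and memory or effector homing, out of 48321 gene symbols counted. All 9 were found in both libraries. The mice, on the C57Bl/6 background, lack the MHC class II chain I-Aβ (I-Ab-/-) and carry *Cd8* Δab/Δab alleles without functional CD8α and CD8β coding regions. CD8α and CD8β are instead made from cDNAs in the *Rosa26* locus (Rosa26 8a/8b), switched on by *Cd4-Cre*, which acts in cells that have turned on the *Cd4* promoter. Both libraries share this genotype and no treatment was given. They are 2 replicates of a single condition, so the values given are those of the transgenic cells alone. Wild-type libraries were not analysed here. The sample titles describe cells negative for both co-receptors, whereas the cell type field says CD8+, and the name used here is that of the study's text. The age of the mice and the number of mice per library are not given in the sources used here.

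Chemokine receptors are G protein-coupled receptors that steer cells along gradients of small secreted chemokines, mainly through inhibitory Gαi proteins. In the thymus, CXCR4 and CCR9 act while thymocytes reside in the cortex, CCR7 and CCR4 draw positively selected cells to the medulla, and CCR7 also takes part in egress. CXCR3, CXCR6, CCR2, CCR8, and CXCR5 are better known from memory, effector, NKT, regulatory, or follicular T cells.

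The libraries held 16732644 and 16245849 reads on genes, and the smallest level that such a total can show, set at 3 counts, was 0.179 CPM (the counts of a gene for each 1000000 counts on genes) in replicate 1 and 0.185 CPM in replicate 2. These floors and the intervals below cover counting error only. The libraries held the markers of the labelled cells. All 7 T-cell markers examined, which summed to 2978 and 2955 CPM, and all 6 markers of mature thymocytes were at 1 CPM or more in both, whereas *Cd24a*, low on mature thymocytes, was at 3.05 and 1.72 CPM and *Cd4* at 0.717 and 1.66 CPM. The 8 markers of double-positive thymocytes summed to 20.98 CPM in replicate 1 and 21.36 CPM in replicate 2, and 4 of them were at 1 CPM or more in both. The counts of *Xist* were 34 and 25266 in replicates 1 and 2, and *Ddx3y*, on the Y chromosome, had 2450 and 0, so the libraries came from different mice, a male source for replicate 1 and a female source for replicate 2. Since each sex is held by a single library, sex and replicate cannot be told apart. In such bulk libraries fewer cells of a type and less RNA per cell cannot be told apart either.

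By CPM the receptors formed a high and a low class, a split that did not hold for *Ccr9* per kb of all annotated exons (below). *Ccr7*, *Cxcr4*, *Cxcr6*, *Cxcr3*, and *Ccr9* were at 87.4 CPM or more in both libraries, and *Ccr2*, *Ccr8*, *Cxcr5*, and *Ccr4* were at 28.5 CPM or less. Together the 9 receptors reached 794 CPM in replicate 1 and 800.3 CPM in replicate 2. *Ccr7* ranked 646 by CPM of the 24082 genes with a count, and *Ccr4*, the lowest of the receptors, ranked 9159.

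**Figure D1:**
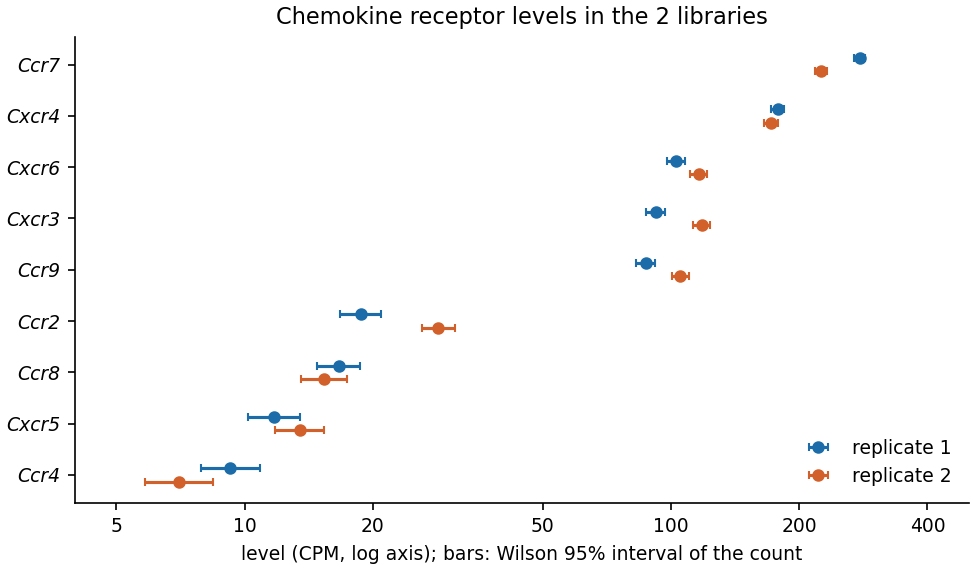
Level of each of the 9 chemokine receptors in CPM (log axis) in replicate 1 and replicate 2, with bars for the Wilson 95% interval of the count. The 5 upper receptors are at 87.4 CPM or more in both libraries and the 4 lower ones at 28.5 CPM or less.

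CPM does not correct for gene length, so levels of different receptors were compared per kb of annotated exon, with all exons of a gene merged. On this scale *Ccr7* stood first at 127 ± 18.8 CPM per kb (SD, n = 2), followed by *Cxcr4* at 96.7 ± 2.58, *Cxcr3* at 60.7 ± 10.6, and *Cxcr6* at 56.7 ± 4.96 CPM per kb. *Ccr8* at 13.6 ± 0.738, *Ccr9* at 9.39 ± 1.23, *Cxcr5* at 3.78 ± 0.375, *Ccr2* at 3.49 ± 1.02, and *Ccr4* at 2.63 ± 0.514 CPM per kb came after them. Neighbours in this order did not overlap between the replicates, except that *Cxcr3* overlapped *Cxcr6*, *Cxcr5* overlapped *Ccr2*, and *Ccr2* overlapped *Ccr4*. These are descriptions of 2 libraries, and no test of the order was run. *Ccr7* took 37.2% of the summed per-kb level of the receptors in replicate 1 and 30.6% in replicate 2, and *Cxcr4* took 26.1% and 25.6%.

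The place of *Ccr9* in the order depended on the length used. Its merged exons span 10.26 kb, against 5.20 kb for its longest transcript and 1.11 kb of coding sequence, and its level per kb was 18.5 ± 2.43 CPM with the transcript and 87.0 ± 11.4 CPM with the coding sequence. With the coding sequence *Ccr9* came right after *Cxcr3*, whose range it overlapped, and it was 4.13 times as high as *Ccr2*. *Ccr7* and *Cxcr4* kept the first and second place, and *Ccr4* the last, under all 3 lengths.

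**Figure D2:**
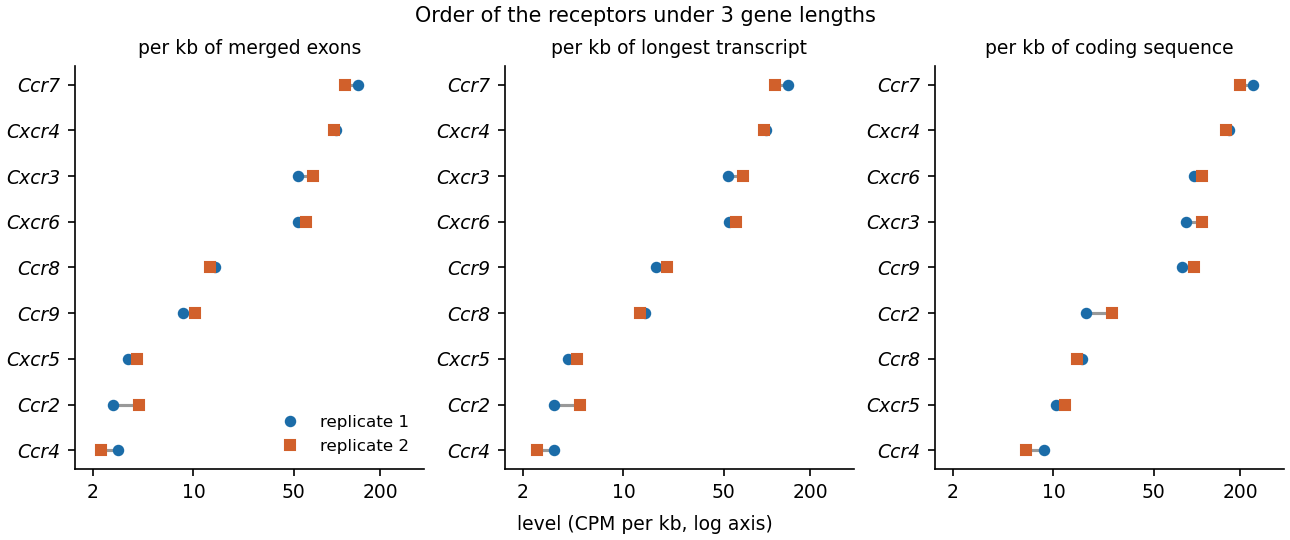
Level of each receptor in CPM per kb (log axis) in replicate 1 (circles) and replicate 2 (squares), divided by the length of merged exons, of the longest transcript, or of the coding sequence. *Ccr9* moves from 9.39 to 18.5 and 87.0 CPM per kb on average, whereas *Ccr7* and *Cxcr4* lead in each panel.

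*Ccr7* encodes the receptor for CCL19 and CCL21 and is found at chr11:99144196-99155077 (GRCm38, or mm10), on the minus strand. Replicate 1 held 4641 counts of it and replicate 2 held 3651, or 277 and 225 CPM. Its level was thus higher in replicate 1, with a log2 ratio of replicate 2 to replicate 1 of -0.30 (two-sided exact binomial test, adjusted p = 1.79e-19). *Ccr4* encodes the receptor for CCL17 and CCL22, which is turned on soon after positive selection, and lies at chr9:114490316-114504916. It had 155 and 114 counts, or 9.26 and 7.02 CPM, with Wilson 95% intervals of 7.91 to 10.8 CPM and 5.84 to 8.43 CPM. These intervals overlap, and the log2 ratio of -0.40 did not pass the test (exact binomial test, adjusted p = 0.110). Per kb, *Ccr4* was at 0.0214 of the level of *Ccr7* in replicate 1 and at 0.0200 in replicate 2, so the ratio of these receptors hardly differed between the libraries.

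*Cxcr4*, the CXCL12 receptor, which retains immature thymocytes in the cortex, lies at chr1:128588199-128592293. It had 2980 and 2786 counts, or 178 and 172 CPM, with a log2 ratio of -0.05 (exact binomial test, adjusted p = 0.377). With library sizes from edgeR's TMM this ratio became -0.13 and passed the test (adjusted p = 0.00880). *Ccr9*, the CCL25 receptor of thymocytes and gut-homing T cells, spans chr9:123678439-123784330. It had 1462 and 1710 counts, or 87.4 and 105 CPM, and was higher in replicate 2 by a log2 ratio of 0.27 (exact binomial test, adjusted p = 5.21e-06). Of its annotated exon bases, 18.8% overlap AC165425.1, annotated on the opposite strand, whose symbol is not among those counted. The noncoding gene *Gm17200*, on the same strand and with 45 and 66 counts, overlaps 2.62% of them. Reads in the overlap with *Gm17200* can be left uncounted or assigned to that gene under any strand setting. For overlaps with a counted gene on the opposite strand this depends on the strand setting, which is not given in the sources used here. Beside these cortical receptors, the double-positive markers *Rag2* and *Ptcra* had at most 4 counts in either library and *Rag1* had 8 and 19. *Dntt* stood out of that list at 13.39 and 12.99 CPM.

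*Cxcr3* and *Cxcr6*, which guide effector, memory, and NKT cells to CXCL9, CXCL10, CXCL11, and CXCL16, had nearly the same level. *Cxcr3* lies on the X chromosome at chrX:101731535-101734269 and had 1541 and 1919 counts, or 92.1 and 118 CPM. *Cxcr6* lies at chr9:123806475-123811760 and had 1719 and 1889 counts, or 103 and 116 CPM. The ratio of *Cxcr3* to *Cxcr6* per kb was 1.00 in replicate 1 and 1.13 in replicate 2. Both were higher in replicate 2. The log2 ratio was 0.36 for *Cxcr3* (exact binomial test, adjusted p = 2.13e-11). It was 0.18 for *Cxcr6* (exact binomial test, adjusted p = 0.00265), and the latter call was lost with TMM library sizes (log2 ratio 0.10, adjusted p = 0.180). The X-linked genes with at least 100 counts, 318 in number, had a median log2 ratio of 0.07, against 0.08 for all 10969 genes of that depth. Of these 318 genes, 9 were called higher in replicate 1 and 57 in replicate 2, against 450 and 2146 of all 15949 genes tested. The part of sex in the level of *Cxcr3* was not tested. *Cxcr6* lies wholly inside *Fyco1*, a gene on the opposite strand with 1455 and 1497 counts, but no exon base of *Cxcr6* overlaps an exon of *Fyco1*.

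RUNX proteins are DNA-binding regulators active throughout T-cell development. The 250 bases before the start of each receptor gene were searched for the RUNX core TGTGGT on both strands, and the stretches around the matches are shown here. RefSeq promoters of GRCm38.p6 were at hand for 7 of the 9 receptors, all but *Ccr7* and *Cxcr5*. The match, read here as its reverse complement, is in capitals, each stretch runs 5′ to 3′ on the gene's strand, and the first lies at chrX:101734240-101734269 on the minus strand and the second at chr9:123806447-123806476 on the plus strand.
Cxcr3: tgtattcacctgACCACAggcgtggcagaa
Cxcr6: agtatttgacggaaacacagACCACAtcac
The core begins 110 bases before the RefSeq start of *Cxcr3*, where GENCODE M21 already draws the first exon, and 10 bases before that of *Cxcr6*. These were the receptors that held it, 2 of 7, against 14.0% of all 32851 promoter windows. The T-box sequence GGTGTGA was in 0 of the 7 windows and in 3.33% of all windows, and the KLF sequence CCACCC was in 2 of the 7, those of *Ccr9* and *Ccr8*, and in 28.1% of all windows. A match of letters is not a binding site, and binding was not measured.

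*Ccr2*, the receptor for CCL2 on monocytes and on memory and effector T cells, lies at chr9:124101950-124113557. It had 313 and 463 counts, or 18.7 and 28.5 CPM, with Wilson 95% intervals of 16.75 to 20.90 CPM and 26.02 to 31.22 CPM. It had the largest log2 ratio of replicate 2 to replicate 1 of the 9 receptors, at 0.61 (exact binomial test, adjusted p = 2.62e-07). Of 8 markers of myeloid and dendritic cells, 2 (*Csf1r* and *Itgam*) were at 1 CPM or more in both libraries, and the list summed to 12.7 and 14.0 CPM. *Lyz2* had 0 and 2 counts and *Cd14* had 0 in both. The study defines mature thymocytes as CD24lo TCRβhi cells, and the purity of the sorted cells is not given in the sources used here. The part of myeloid cells in the level of *Ccr2* was not tested. Of the 6758 windows of 50 bases, the read length, in its annotated transcripts, 1.91% also occur in transcripts of other genes. HTSeq by default leaves out reads that align to several places, and whether that default was kept is not given in the sources used here. For *Ccr7*, *Ccr8*, *Cxcr3*, *Cxcr4*, and *Cxcr6*, none of the windows (0%) occurs in transcripts of another gene.

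*Ccr8*, a receptor for CCL1 found on regulatory and type 2 T cells, lies at chr9:120092114-120094906 and had 278 and 250 counts, or 16.6 and 15.4 CPM. Its Wilson 95% intervals, 14.8 to 18.7 CPM and 13.6 to 17.4 CPM, overlapped (log2 ratio -0.11, exact binomial test, adjusted p = 0.642). Beside it, 5 of 6 markers of regulatory T cells were at 1 CPM or more, with *Foxp3* at 12.1 and 12.4 CPM, and the list summed to 152 and 156 CPM, of which *Ikzf2* made up 91.7 and 99.7 CPM. Their part in the level of *Ccr8* and *Ccr4* was not tested. *Cxcr5*, the CXCL13 receptor of B cells and follicular helper T cells, lies at chr9:44511787-44561877 and had 196 and 219 counts, or 11.7 and 13.5 CPM (log2 ratio 0.20, exact binomial test, adjusted p = 0.377). Of the 6 B-cell markers, *Pax5* had 1 and 0 counts, *Ms4a1* had 8 and 5, and *Cd79a* had 21 and 15. *Cd79b* had 196 and 227 counts, or 11.7 and 14.0 CPM. *Ighm* was at 133 and 136 CPM and made up most of the list's sum of 146 and 151 CPM. The part of B cells in the level of *Cxcr5* was not tested. A stretch of 110 exon bases of *Cxcr5*, 3.30% of the total, overlaps *Bcl9l* on the opposite strand, which had 2725 and 2384 counts.

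The receptor genes are not spread evenly over the genome. Of the 9 receptors, 6 lie on chromosome 9, and 3 of these, *Ccr9*, *Cxcr6*, and *Ccr2*, lie in a cluster of receptor genes. The GENCODE M21 start of *Ccr2* is 424 kb after that of *Ccr9*. The RefSeq promoter window of *Ccr9* searched above, chr9:123766961-123767210, lies inside the GENCODE span of that gene. Levels differed along this cluster. *Ccr9* and *Cxcr6* were at 87.4 CPM or more in both libraries, and *Xcr1* was at 2.45 and 2.40 CPM. *Ccr1*, *Ccr1l1*, and *Ccr3* had 0 counts in both libraries, for which the Wilson 95% upper limits were 0.230 and 0.236 CPM. The floors of 3 counts were 0.179 and 0.185 CPM. *Ccr2*, after them, was found again.

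**Figure D3:**
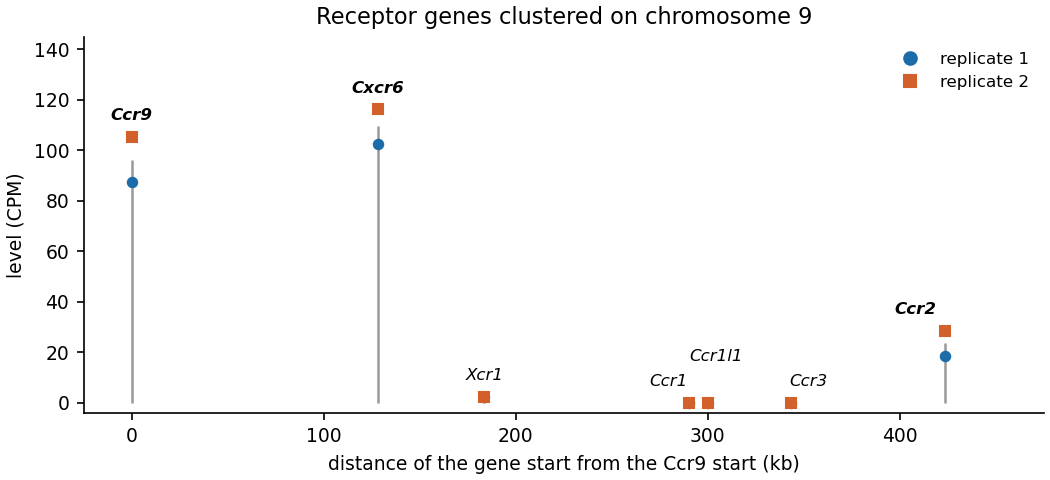
Level in CPM of 7 chemokine receptor genes in the cluster on chromosome 9 in replicate 1 (circles) and replicate 2 (squares). Each gene is plotted at the distance in kb of its GENCODE M21 start from that of *Ccr9*. Lines run up to the mean, and members are in bold. *Ccr1*, *Ccr1l1*, and *Ccr3* have 0 counts between *Xcr1* and *Ccr2*.

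Between the replicates, 5 of the 9 receptors differed by more than counting error. *Ccr7* was higher in replicate 1, and *Ccr9*, *Ccr2*, *Cxcr3*, and *Cxcr6* were higher in replicate 2. This test compares a library of male with a library of female origin within a single condition, and it allows for counting error alone. Over all 15949 genes tested, 16.3% were called by the same rule, 2.82% higher in replicate 1 and 13.5% higher in replicate 2, and 4 of the 5 receptors called were among the 5 with 1000 to 10000 summed counts, a depth at which 27.6% of genes were called. Among genes with 100 to 1000 summed counts, where the other 4 receptors lie, 11.6% were called. None of the receptors differed 2-fold or more, against 1.52% of all genes tested. The median log2 ratio was 0.18 for the 9 receptors and 0.08 for all genes. The direction of calls over all genes depended on the scaling, with 450 genes higher in replicate 1 and 2146 in replicate 2 by total counts, and 859 and 824 with TMM library sizes, under which 10.6% of genes were called. *Cxcr4* then replaced *Cxcr6* among the 5 receptors called.

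The picture changed when variation between libraries was added to the counting error. For edgeR's exact test a biological coefficient of variation (BCV) of 0.1 was used, a value that was set and not measured. With it, 0 of the 9 receptors passed, against 0.464% of all genes. Of the receptors 1, *Ccr2*, had an unadjusted p under 0.05 (p = 0.00854, edgeR exact test, adjusted p = 0.468). With the common dispersion estimated by treating both libraries as a single group, a BCV of 0.105, 0 of 9 passed against 0.42% of all genes, and 1, again *Ccr2*, had an unadjusted p under 0.05 (p = 0.0113, edgeR exact test, adjusted p = 0.577). For 5 receptors, then, the difference between the replicates passed a test of counting error. For none did it pass with an added spread that was either set in advance or estimated from the libraries compared. An independent measure of the spread between libraries was not available.

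**Figure D4:**
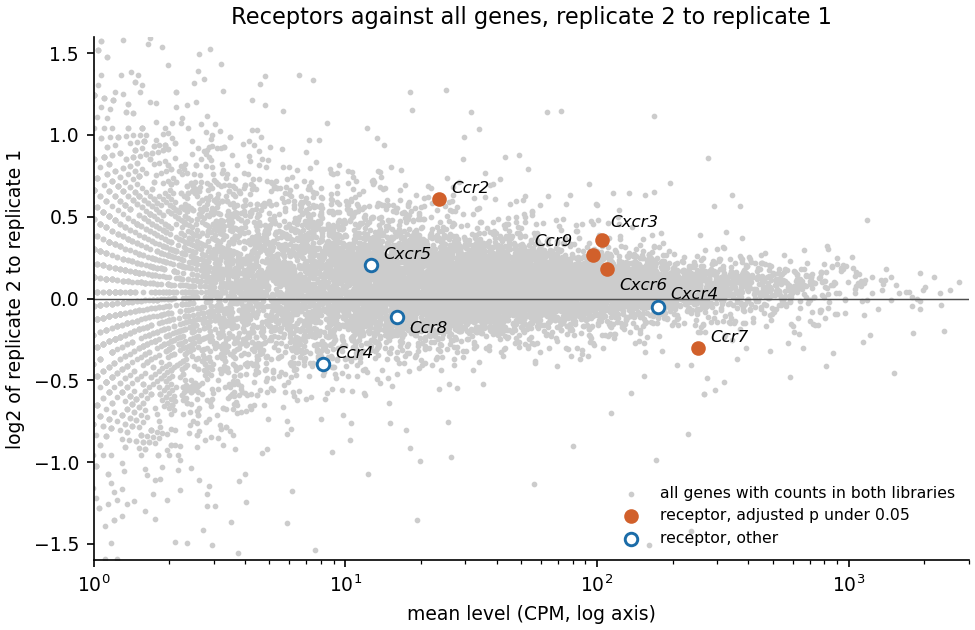
Log2 ratio of replicate 2 to replicate 1 against the mean level in CPM (log axis) for genes with at least 10 summed counts and counts in both libraries (grey; genes beyond the axes are not drawn) and for the 9 receptors, filled where the exact binomial test gave an adjusted p under 0.05. The receptors lie between -0.40 (*Ccr4*) and 0.61 (*Ccr2*).

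Markers of other thymocyte states also differed between the same libraries. Over all genes tested, 16.3% were called by total counts, 2.82% higher in replicate 1 and 13.5% higher in replicate 2. With TMM library sizes 10.6% were called, and 0.464% passed edgeR's exact test at a BCV of 0.1. Genes with more counts were called more often, 27.6% of them at 1000 to 10000 summed counts. The share at the greater depth of *Itgb7* and *Cd52* was not computed. Of the 6 markers of mature thymocytes, 4, with *S1pr1*, *Cd52*, and *Itgb7* among them, were higher in replicate 1 like *Ccr7*, and the list summed to 2918 CPM in replicate 1 and 2547 CPM in replicate 2. *S1pr1*, the receptor for egress from the thymus, was at 318 and 227 CPM (log2 ratio -0.48, exact binomial test, adjusted p = 1.48e-53). Of the 6 markers of innate memory-like CD8 T cells, *Eomes*, *Cd44*, and *Il2rb* were higher in replicate 2 like *Cxcr3* and *Ccr2*, *Ly6c2* was higher in replicate 1, and the list summed to 1085 and 1285 CPM. *Eomes* was at 196 and 355 CPM (log2 ratio 0.86, exact binomial test, adjusted p = 6.78e-166), and it passed edgeR's exact test as well (adjusted p = 0.0119 at a BCV of 0.1), the only 1 of the 6 to do so. For *Cd44* and *Il2rb* edgeR's adjusted p was 1.00 and for *Ly6c2* it was 0.967. None of the 6 mature thymocyte markers passed it, where 1, *S1pr1*, had an unadjusted p under 0.05 (p = 0.0195, edgeR exact test, adjusted p = 0.707). The 6 markers of iNKT and NK cells, which often express *Cxcr6*, summed to 163 CPM and 160 CPM. *Klrd1*, at 71.4 and 58.0 CPM, and *Gata3*, at 47.9 and 45.9 CPM, made up most of this sum. *Zbtb16* was at 18.2 and 21.6 CPM, *Ncr1* at 2.69 and 6.89 CPM, and *Il4* at 11 and 7 counts. Many of the markers are not confined to the named cells, and the study reports *Zbtb16* as up-regulated in the CD4- mature thymocytes. Of this list *Klrb1c* and *Ncr1* were higher in replicate 2 and *Klrd1* was higher in replicate 1 by the exact binomial test, and *Ncr1* passed edgeR's exact test (adjusted p = 0.00862 at a BCV of 0.1). With TMM library sizes all 6 mature thymocyte markers were higher in replicate 1, the 4 innate memory-like markers kept their calls and directions, and *Klrb1c* lost its call (log2 ratio 0.24, adjusted p = 0.130). The part of these cells in the receptor levels was not tested.

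**Figure D5:**
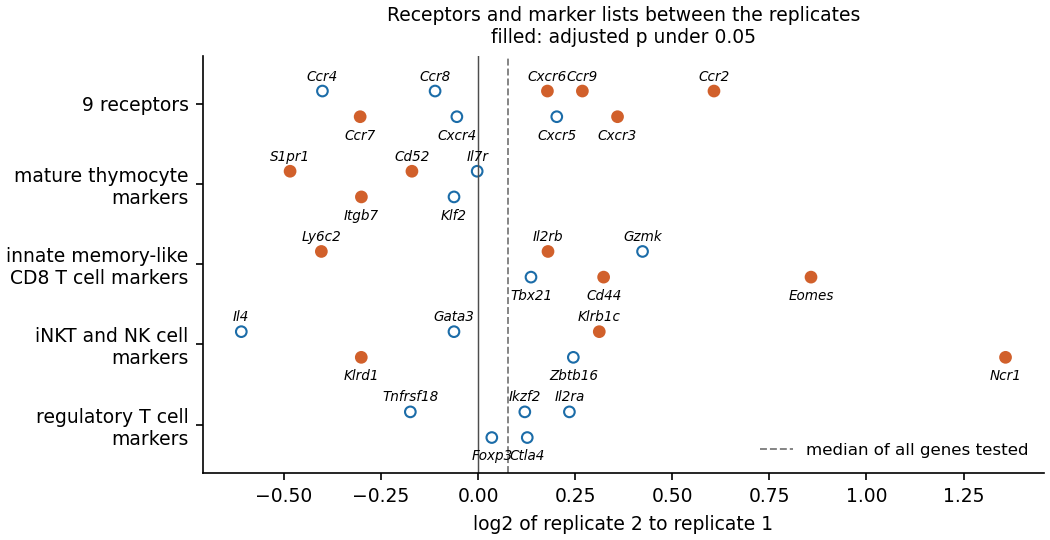
Log2 ratio of replicate 2 to replicate 1 for the 9 receptors and for 4 marker lists, each point a tested gene among those reported, filled where the exact binomial test gave an adjusted p under 0.05, with the median of all genes tested as a dashed line (0.08). *Ccr7* lies at -0.30, and *Cxcr3* and *Ccr2* lie at 0.36 and 0.61. The mature thymocyte markers *Itgb7*, *Cd52*, and *S1pr1* are higher in replicate 1. Of the innate memory-like markers called, *Eomes*, *Cd44*, and *Il2rb* are higher in replicate 2, whereas *Ly6c2* lies at -0.40. Of the iNKT and NK markers called, *Ncr1* and *Klrb1c* are higher in replicate 2 and *Klrd1* lies at -0.30.

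The remaining chemokine receptors reported here were at 14.4 CPM or less, as were the members *Cxcr5* and *Ccr4*. Of 10 other conventional receptors, 5 were at 1 CPM or more in both libraries, 4 (*Ccr1*, *Ccr1l1*, *Ccr3*, and *Cxcr1*) had 0 counts. Among those reported here, *Cx3cr1*, the fractalkine receptor of effector cells, was at 14.3 and 14.4 CPM, followed by *Ccr10* at 2.81 and 3.32 CPM, *Xcr1*, and *Cxcr2* at 1.14 and 1.48 CPM. *Ccr6* had 8 and 11 counts. Of 6 atypical or related receptors, which mostly bind chemokines without G-protein signalling, 2 were at 1 CPM or more. These were *Ackr4*, a scavenger of CCR7 and CCR9 ligands, at 2.63 and 3.63 CPM and *Ccrl2* at 2.69 and 1.91 CPM. *Ackr3* had 0 counts and *Cmklr1* had 4 and 0, and none of the 6 differed between the libraries by the exact binomial test, for which 2 had enough counts.

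Most genes listed as machinery downstream of the receptors were at 1 CPM or more, but not all were abundant. *Gnaq* was at 3.77 and 3.94 CPM and *Rgs16* at 3.29 and 3.14 CPM. Of 9 G-protein subunits, 8 were at 1 CPM or more. *Gnai2*, the main Gαi of lymphocytes, was at 591 and 582 CPM and *Gnai3* at 186 and 181 CPM, whereas *Gnai1* had 0 counts. The β subunit *Gnb1* was at 211 and 228 CPM (log2 ratio 0.11), and it and *Gna13* (log2 ratio 0.15) were higher in replicate 2 by total counts. With TMM library sizes neither passed, and *Gnai2* (log2 ratio -0.10) and *Gnai3* (-0.11) were higher in replicate 1 instead. Of 14 receptor kinases, arrestins, and RGS proteins, which end or dampen receptor signalling, 12 were at 1 CPM or more, and *Grk6*, *Adrbk1* (GRK2), and *Arrb2* led per kb at 122, 112, and 85.9 CPM per kb. In that list *Rgs3* (log2 ratio -0.23) and *Rgs10* (-0.34) were higher in replicate 1, and *Adrbk1* (0.16), *Arrb1* (0.24), *Rgs1* (0.34), and *Rgs2* (0.41) were higher in replicate 2 by total counts. With TMM library sizes *Rgs1* lost its call, and *Arrb2* (log2 ratio -0.11) was called higher in replicate 1. All 16 motility and adhesion effectors were at 1 CPM or more. *Coro1a*, an actin regulator needed for thymic egress, was at 1675 and 1720 CPM, *Rac2* at 907 and 928 CPM, and *Rap1b* at 395 and 392 CPM. Of these 16, by total counts, *Elmo1* was higher in replicate 1 (log2 ratio -0.15), and *Ptk2b* (0.11), *Pik3r5* (0.20), *Pik3cg* (0.21), *Rassf5* (0.31), and *Tiam1* (0.79) were higher in replicate 2. The direction of *Coro1a* turned with the scaling, from a log2 ratio of 0.04 by total counts (exact binomial test, adjusted p = 0.0165) to -0.04 with TMM (adjusted p = 0.0186). With TMM *Ptk2b* lost its call, and the list had 5 genes higher in replicate 1 and 4 higher in replicate 2. Such counts stand beside the 16.3% of all genes called by total counts and the 10.6% called with TMM. None of the genes of these 3 lists passed edgeR's exact test at a BCV of 0.1, where 1, *Tiam1*, had an unadjusted p under 0.05 (edgeR exact test, p = 0.00118, adjusted p = 0.163).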

How the data were processed

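Poly(A) RNA of sorted CD4- mature thymocytes was sequenced as single-end reads of 50 bases. Per the labels and the methods, the authors mapped reads to mm10 (GRCm38) with TopHat 2.1.1 and deposited raw counts per gene from HTSeq 0.6.1. The annotation and strand setting are not given in the sources used here. Lines starting with __ (55.9% of uniquely aligned reads on no gene) were left out of totals.

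CPM used the total on genes. Lengths and positions came from GENCODE M21 (GRCm38), which gave a length for 46296 of 48321 symbols. Wilson 95% intervals and the binomial test used scipy 1.17.1, with Benjamini-Hochberg adjustment (statsmodels 0.14.6) over 15949 genes with at least 10 summed counts, and calls at an adjusted p under 0.05. Alternatives used edgeR 4.0.16 and DESeq2 1.42.0. Scripts were tested on simulated data (Python 3.11.15, R 4.3.3).

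The receptors and gene lists were chosen with earlier results of these data known. Named are the 9 receptors, the 3 highest genes per kb of each list, genes of a list that differed between the replicates, and other receptors with at least 1 CPM in both libraries. *Ccr6*, *Foxp3*, and other genes given beside a result were added after their values were seen. A few genes of these lists are not reported here.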

Additional observations from a re-analysis of the deposited data

How the results depend on the processing

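When genes of mitochondrial and ribosomal RNA were dropped from the totals, the 9 receptors summed to 931 CPM in place of 797 ± 4.46, and to 437 CPM per kb in place of 374 ± 4.43, because the totals became smaller. The summed level per kb was 386 with the longest transcript and 723 with the coding length. Leaving out either replicate gave 794 to 800.3 CPM, 371 to 377 CPM per kb, and a *Ccr7* share of 30.6% to 37.2%, which only restates the replicates. No receptor moved by more than 1 SD in CPM with TMM or DESeq2 library sizes. Genes that differed between the replicates numbered 2596 by total counts, 1683 with TMM, and 1685 with DESeq2 size factors. Those at least 2-fold different numbered 242, and 55 with a minimum of 100 counts. With edgeR's exact test 74 genes differed, 60 of them at least 2-fold, with a BCV (biological coefficient of variation) of 0.1, and 67 and 56 with the estimated dispersion, while 0 of the 9 receptors passed either, against 5 in the binomial test. This test adds variation between libraries by its construction. No receptor changed its direction under these alternatives. Among the other listed genes, scaling by TMM, an alternative chosen after seeing the data, turned *Coro1a* to a log2 ratio of -0.039 from 0.038 and *Dock2*, not called by total counts, to -0.070 from 0.0070, since TMM lowers every ratio by the same amount. No paired analysis was possible because the series holds a single group. The difference between the replicates could not be computed with a replicate left out.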

Other observations

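The cells themselves held few transcripts of the chemokines that their receptors bind. Of 17 ligand genes of the 9 receptors in the tables, 8 had 0 counts in both libraries, among them *Ccl19*, *Ccl21a*, *Ccl22*, and *Cxcl13*, and 2 were at 1 CPM or more in both. These were *Ccl25*, the CCR9 ligand, at 7.47 and 9.05 CPM and *Cxcl10*, a CXCR3 ligand induced by interferon, at 4.36 and 1.54 CPM. *Cxcl10* was higher in replicate 1, with 73 counts against 25 (log2 ratio -1.50, exact binomial test, adjusted p = 5.09e-05), and it passed edgeR's exact test with a BCV of 0.1 (adjusted p = 0.0230). *Cxcr3* was called higher in replicate 2 by the exact binomial test but did not pass edgeR's exact test. A link between these genes was not tested. *Ccl17* had 2 and 3 counts. The 6 markers of thymic epithelium, which makes CCL25 and CCL21, summed to 3.89 and 4.37 CPM, with *Foxn1* at 1 and 0 counts and *Psmb11* at 9 and 11. The 5 erythroid markers summed to 0.478 and 0.616 CPM.

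Of 6 genes listed as chemokines of T and NK cells, 3 were at 1 CPM or more in both libraries. Among these, *Ccl5* and *Xcl1* were higher than the ligand genes above. *Ccl5* was at 47.9 and 71.2 CPM (log2 ratio 0.57, exact binomial test, adjusted p = 3.82e-16). *Xcl1* was at 20.6 and 26.6 CPM (log2 ratio 0.37, exact binomial test, adjusted p = 0.00439). Both were higher in replicate 2, as were 2146 of the 2596 genes called by total counts. Neither passed edgeR's exact test with a BCV of 0.1 (adjusted p = 0.456 for *Ccl5* and 1.00 for *Xcl1*). In that test 0 genes of this list passed and 2, *Ccl5* and *Ccl9*, had an unadjusted p under 0.05. *Ccl4* was at 3.94 and 4.06 CPM, and *Ccl3* had 17 and 13 counts.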
